A study of Patiria miniata with 18 samples.

Results

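Anterior fragments of bat star larvae at 6 days post-bisection (dpb) were compared with posterior fragments of the same age, in 4 of the 18 RNA-seq libraries of a regeneration time course. The 4 libraries were chosen by their labels, anterior segments at 6 dpb (2 replicates) and posterior segments at 6 dpb (2 replicates), and were paired by replicate number. Larvae of Patiria miniata were cut by hand at 7 days post-fertilization, across the foregut and midway along the anterior-posterior axis, and no transgene, mutation or drug was involved in any group. Each library was made from a pool of about 300 sibling fragments, or of sibling uncut larvae for the controls, which were kept in seawater at 16 °C with algal food and were sampled about 3 hours post-bisection (hpb) and again on days 3 and 6. The anterior fragment keeps the mouth region and the apical nervous system, and the posterior fragment keeps most of the gut. Uncut larvae were not part of the contrast, and their levels are given only for orientation. A library is a mixture of all cells of a fragment, so fewer cells of a type and less RNA per cell cannot be told apart.

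The bipinnaria larva is patterned along its anterior-posterior axis by a gene network that is used in embryos across deuterostomes. At the anterior end, transcription factors such as Six3, FoxQ2, Rx and Nkx2.1 mark the apical ectoderm that forms the larval nervous system, together with the Wnt receptor Frizz5/8. At the posterior end, Wnt ligands and their targets, among them Bra, Eve and Hox11/13b, mark the ectoderm around the blastopore and the hindgut. The midgut makes the digestive enzymes, the coelomic pouches flank the gut, and a ciliary band that drives swimming and feeding runs over the whole body.

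The 4 fragment libraries held 24232186 and 21304822 counts on loci in anterior fragments, against 27472243 and 21676324 in posterior fragments, within a range of 15868104 to 36152675 over the 18 libraries. The first principal component of the 6 libraries of 6 dpb carried 59.3% of the variance and separated the replicate numbers, with replicate 1 of each group at negative scores and replicate 2 at positive ones. Posterior replicate 2 had a score of 48.1 on it, below the 140 of anterior replicate 2 and the 125 of uncut replicate 2. The second component carried 25.3% and separated the fragments, with anterior scores of 106 and 86.4, against posterior scores of -47.4 and -82.7. The fit therefore compared the fragments within each replicate number. Levels are given as CPM, counts scaled to a library of a fixed size with trimmed-mean (TMM) factors, replicate 1 first, and differences as log2 of anterior over posterior with their SE. Adjusted p-values are Benjamini-Hochberg values of edgeR's quasi-likelihood F test over all 31798 tested loci, and a locus passed the test at an adjusted p under 0.05. The labels do not say whether the replicate pools came from separate parents or cultures. The p-values measure the spread left within replicate numbers, pooled over all 18 libraries, and not the shift between replicate pools.

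At 6 dpb, 2299 loci were higher in anterior fragments (7.23% of those tested) and 1807 were lower (5.68%). The sizes were unequal. Among loci that were higher the median log2 difference was 1.22, 384 differed by more than 4-fold and 58 by more than 16-fold. Among loci that were lower the median was -2.27, 1010 differed by more than 4-fold and 503 by more than 16-fold, and 61 had no count in either anterior library, against 3 of the higher loci with none in either posterior library. The median over all tested loci was -0.03. A looser rule, which asked for a change above 2-fold at p under 0.05 before adjustment, gave 2225 loci that were higher (7.00%) and 2235 that were lower (7.03%). With replicate 1 left out 1215 loci passed as higher and 1510 as lower, and with replicate 2 left out 487 and 896.

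**Figure D1:**
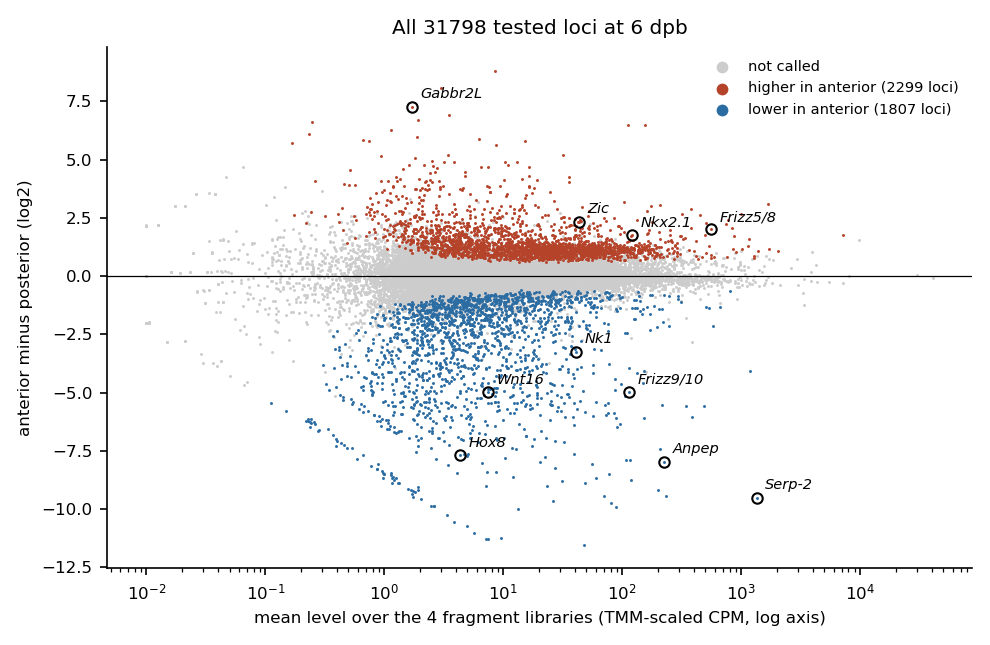
Each point is one of the 31798 tested loci at 6 dpb, with its mean CPM over the 4 fragment libraries on a log axis and its anterior minus posterior difference (log2) on the linear axis; red points were higher and blue points lower in anterior fragments, and 10 genes are ringed. The blue points reach further from 0 than the red ones, and those in a diagonal line at the lower left had no count in either anterior library, where the fitted difference depends on the prior count.

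Among genes of anterior patterning and of the apical nervous system, more were higher than lower in anterior fragments. Of the 37 tested, 14 (37.8%) were higher, 4 (10.8%) were lower and 19 did not pass, and their median difference was 0.61. The shares of all loci were 7.23% higher and 5.68% lower. Without replicate 1 the counts were 11 higher and 2 lower, and without replicate 2 they were 9 and 0. The Wnt receptor Frizz5/8 was the most abundant of the genes that differed, at 965 and 807 CPM in anterior fragments, against 294 and 166 CPM in posterior fragments (log2 2.01 ± 0.20, adjusted p = 5.8e-05). Both posterior libraries lay below both anterior ones and near the 369 and 222 CPM of uncut larvae. Zic, a zinc finger factor of early neural ectoderm, had 74.3 and 68.1 CPM in anterior fragments, against 21 and 9.18 CPM in posterior fragments (2.34 ± 0.42, adjusted p = 0.00347), the largest rise in this group of genes.

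The 5 genes below are shown because they separate the fragments at both ends of the axis and because the study designed a hybridization probe for each. The sequence is the 100-base stretch of the transcript that the probe targets, in lower case from 5′ to 3′ as its table gives it. Each holds at least 1 reading frame without a stop codon on that strand, which does not show that this frame is coding. Positions are the bounds of the locus on the scaffolds of the P. miniata v1.0 assembly. Frizz5/8 lies on scaffold 4579 at 35051 to 40020, Zic on scaffold 6594 at 17351 to 30517, Frizz9/10 on scaffold 6583 at 15898 to 23305, Nk1 on scaffold 729 at 17748 to 26359, and Bra on scaffold 6295 at 8782 to 21108.
Frizz5/8: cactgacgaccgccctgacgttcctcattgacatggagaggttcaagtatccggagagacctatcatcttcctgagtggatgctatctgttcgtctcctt
Zic: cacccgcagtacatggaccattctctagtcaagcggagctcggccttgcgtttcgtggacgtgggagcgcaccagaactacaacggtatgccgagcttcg
Frizz9/10: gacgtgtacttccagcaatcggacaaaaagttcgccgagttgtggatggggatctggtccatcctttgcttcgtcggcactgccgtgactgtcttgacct
Nk1: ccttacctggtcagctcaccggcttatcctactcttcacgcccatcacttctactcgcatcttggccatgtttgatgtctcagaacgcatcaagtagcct
Bra: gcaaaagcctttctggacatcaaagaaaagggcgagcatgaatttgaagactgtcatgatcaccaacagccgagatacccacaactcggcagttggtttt
Frizz5/8 and Zic were higher in anterior fragments, and Frizz9/10, Nk1 and Bra were lower.

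The homeobox genes of the anterior ectoderm followed. Rx-1 and Rx-2, both of the retinal homeobox family, differed by 2.26 ± 0.32 (adjusted p = 0.00086) and 2.04 ± 0.25 (adjusted p = 0.000296), and Rx-2 had 84.2 and 44.2 CPM in anterior fragments, against 20.5 and 10.8 CPM in posterior fragments. The LIM homeobox gene Awh stood at 47.7 and 69.2 CPM in anterior fragments, against 13.6 and 12.4 CPM in posterior fragments (2.13 ± 0.26, adjusted p = 0.000279). Nkx2.1 had 183 and 192 CPM in anterior fragments, against 69.3 and 44.0 CPM in posterior fragments (1.76 ± 0.26, adjusted p = 0.000934). For all of these the 2 groups did not overlap. Limc1 (1.96 ± 0.37) and Chx10 (1.84 ± 0.25) differed by about as much at lower levels, with 18.2 and 9.50 CPM of Chx10 in anterior fragments, against 5.87 and 2.31 CPM in posterior fragments.

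The forkhead factors and Six3 moved less. FoxD had 121 and 123 CPM in anterior fragments, against 46.1 and 35.1 CPM in posterior fragments (1.60 ± 0.19, adjusted p = 0.000183). Six3, which specifies the anterior-most ectoderm, had 135 and 243 CPM in anterior fragments, against 68.2 and 78.9 CPM in posterior fragments (1.33 ± 0.26, adjusted p = 0.00631). FoxJ1, the regulator of motile cilia, differed by 1.45 ± 0.21 (adjusted p = 0.000898), Otp by 1.18 ± 0.21, Isl by 1.06 ± 0.26 and Hbn by 0.88 ± 0.24 (adjusted p = 0.0311). FoxQ2, the other apical factor, had 37.1 and 53.7 CPM in anterior fragments, against 25.6 and 13.1 CPM in posterior fragments, but its pairs spread widely and it did not pass (1.11 ± 0.69, adjusted p = 0.373). Tph-1, which codes for the enzyme that begins serotonin synthesis, had 190 and 192 CPM in anterior fragments, against 154 and 173 CPM in posterior fragments (0.22 ± 0.20, adjusted p = 0.563).

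Soxb1, the most abundant gene of the list, was among the 19 members that did not pass, with 1260.4 and 904 CPM in anterior fragments, against 1250.7 and 1029.9 CPM in posterior fragments (-0.09 ± 0.20, adjusted p = 0.853). Otx (-0.20 ± 0.20), Soxb2 (-0.24 ± 0.19), FoxG (0.17 ± 0.24) and Elav-2 (0.04 ± 0.20) did not pass either. The 4 members that were lower in anterior fragments were SoxC, Dlx, Lim1 and Sfrp3/4I. SoxC, a factor of differentiating neurons, had 84.5 and 63.7 CPM in anterior fragments, against 217 and 171 CPM in posterior fragments (-1.39 ± 0.34, adjusted p = 0.02), and both posterior libraries were above the 46.9 and 59.9 CPM of uncut larvae. Sfrp3/4I, a secreted Frizzled-related protein, differed by -2.20 ± 0.54 (adjusted p = 0.0204), Dlx by -1.74 ± 0.41 and Lim1 by -1.36 ± 0.26. Dlx was the 1 gene of the 18 that passed whose groups overlapped, with 30.9 and 3.62 CPM in anterior fragments, against 55.6 and 26.0 CPM in posterior fragments. How often groups overlapped among all loci that passed was not counted, so no list can be called unusual in it.

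**Figure D2:**
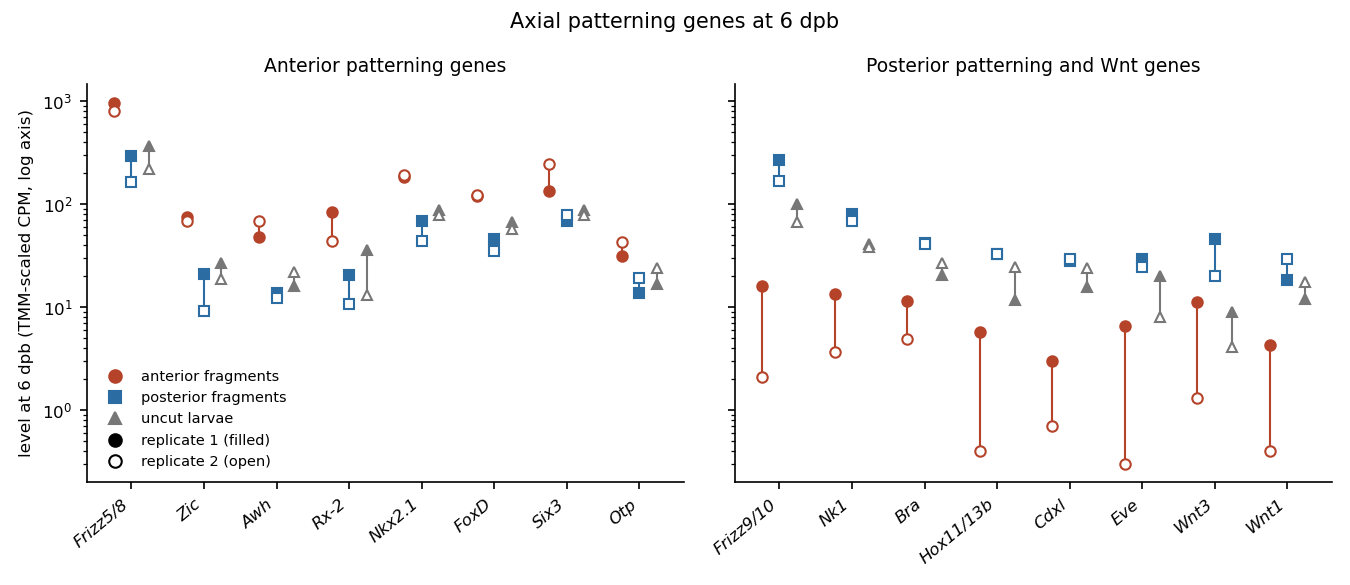
Levels at 6 dpb in CPM on a log axis for 8 anterior and 8 posterior or Wnt genes, with anterior fragments in red, posterior fragments in blue and uncut larvae in gray, replicate 1 filled and replicate 2 open, and a line joining the 2 libraries of a group. Anterior fragments lie above posterior ones for all 8 genes on the left and below them for all 8 on the right, where anterior replicate 2 is the lowest library of every gene.

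Posterior patterning genes were lower in anterior fragments with few exceptions. Of 15 tested, none was higher and 12 (80%) were lower, against 7.23% and 5.68% of all loci, and the median difference was -3.50. Frizz9/10, the posterior Frizzled receptor, had 15.9 and 2.11 CPM in anterior fragments, against 270 and 169 CPM in posterior fragments (-4.95 ± 0.48, adjusted p = 4.23e-05). The homeobox gene Nk1 had 13.5 and 3.72 CPM in anterior fragments, against 79.6 and 67.8 CPM in posterior fragments (-3.24 ± 0.39, adjusted p = 0.000205). The T-box gene Bra, which is active around the blastopore of the embryo, had 11.5 and 4.88 CPM in anterior fragments, against 42.3 and 41.3 CPM in posterior fragments (-2.39 ± 0.35, adjusted p = 0.000983). No member that passed had overlapping groups, a share that was not counted over all loci.

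All 5 Hox genes of the list were lower in anterior fragments, and 3 of them, Hox8, Hox11/13a and Hox5, had few counts there. Hox8 had 2 counts in the 2 anterior libraries together, against 8.62 and 8.59 CPM in posterior fragments, which gives a ratio of posterior over anterior fragments of 210 (95% counting interval 57.9 to 1741, counting error only). Hox11/13a had 0.103 and 0.302 CPM in anterior fragments, against 12.6 and 21.1 CPM in posterior fragments (-6.42 ± 0.48, adjusted p = 6.04e-06), and Hox5 differed by -4.93 ± 0.62. Hox11/13b had 5.69 and 0.402 CPM in anterior fragments, against 32.8 CPM in both posterior libraries (-3.51 ± 0.73, adjusted p = 0.00811). Its anterior replicate 1 lay well above anterior replicate 2, and both were below the posterior libraries.

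That split of the anterior libraries recurred in several posterior genes. Eve had 6.59 and 0.302 CPM in anterior fragments, against 29.2 and 24.3 CPM in posterior fragments (-3.50 ± 0.74), and Cdxl, a Caudal-type gene, had 3.04 and 0.704 CPM in anterior fragments, against 28.2 and 29.1 CPM in posterior fragments (-3.93 ± 0.47, adjusted p = 0.000211). Msx differed by -4.60 ± 0.69, Hox7, which shares exon bases with another locus, by -2.09 ± 0.48, and Evi1 by -0.75 ± 0.22. Not (-2.09 ± 0.74, adjusted p = 0.0921), Frizz1/2/7 (-0.20 ± 0.20, adjusted p = 0.619) and Sp5 (0.54 ± 0.26, adjusted p = 0.226) did not pass. Frizz1/2/7 had 174 and 123 CPM in anterior fragments, against 180 and 157 CPM in posterior fragments.

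Wnt pathway genes went both ways, with 11.1% higher and 27.8% lower in anterior fragments, against 7.23% and 5.68% of all loci, and 22 did not pass. Of 36 tested, 4 were higher in anterior fragments and 10 lower, and the median was -0.29; the lower count was 10 without replicate 1 and 5 without replicate 2. Beside Frizz9/10 and Sfrp3/4I, the genes that were lower were mostly ligands, with Wnt16 (-4.99 ± 0.70, adjusted p = 0.000715), Wnt4_2 (-3.57 ± 0.81), Wnt1 (-3.36 ± 0.78), Wnt10 (-3.35 ± 0.79), WntA (-3.24 ± 0.55), Wnt3 (-2.76 ± 0.42) and Wnt6 (-2.68 ± 0.53). Wnt3, the most abundant of these ligands, had 11.2 and 1.31 CPM in anterior fragments, against 46.1 and 20.1 CPM in posterior fragments (adjusted p = 0.00117), and both posterior libraries were above the 9.01 and 4.16 CPM of uncut larvae. Wnt1 had 4.31 and 0.402 CPM in anterior fragments, against 18.3 and 29.3 CPM in posterior fragments (adjusted p = 0.0142). Rspo3, a secreted enhancer of Wnt signalling, was lower as well (-2.15 ± 0.54, adjusted p = 0.0214).

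The loci called Wnt5 and Wnt4 here were higher in anterior fragments. The study's probe names the Wnt5 locus wnt4, and the paper lists a Wnt5 among its posterior-specific genes, so this name is not secure. Wnt5 had 63.6 and 18.2 CPM in anterior fragments, against 10.3 and 2.90 CPM in posterior fragments (2.64 ± 0.33, adjusted p = 0.000296). Of the members that were higher beside Frizz5/8, Wnt4, a locus apart from Wnt4_2, had 4.55 and 7.14 CPM in anterior fragments, against 2.83 and 2.15 CPM in posterior fragments (1.17 ± 0.31, adjusted p = 0.0279), and the coreceptor gene Lrp6L_3 differed by 0.83 ± 0.23 (adjusted p = 0.0384). The parts of the pathway inside the cell did not pass: Ctnnb, which codes for beta-catenin, had 423 and 504 CPM in anterior fragments, against 476 and 453 CPM in posterior fragments (-0.01 ± 0.27), Dsh differed by -0.03 ± 0.18, Apc by -0.23 ± 0.25 and Lef1 by 0.51 ± 0.25. Axin, which many Wnt responses raise, was just outside the threshold at -1.07 ± 0.33 (adjusted p = 0.053), as was Nlk at -0.76 ± 0.24 (adjusted p = 0.0646). The ligand gene Wnt8 differed by 0.64 ± 0.33 (adjusted p = 0.277). Whether ligands differed from the parts inside the cell was not tested.

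Genes of digestion were lower in anterior fragments in many cases, and some of the largest fold differences were among them. Of 35 tested digestive enzymes, 17 (48.6%) were lower in anterior fragments and 2 (5.71%) higher, with a median of -2.03. The shares of all loci were 5.68% lower and 7.23% higher. Anpep, aminopeptidase N of the brush border in vertebrates, had 1.52 and 2.11 CPM in anterior fragments, against 444 and 453 CPM in posterior fragments (-7.96 ± 0.58, adjusted p = 5.61e-06). Cpa4L, a carboxypeptidase, had 8 counts in the 2 anterior libraries, 0.103 and 0.251 CPM, against 86.6 and 238 CPM in posterior fragments (-9.75 ± 0.48, adjusted p = 1.43e-06). Pla2g1b_2, a secreted phospholipase, had 0.414 and 0.402 CPM in anterior fragments, against 119 and 189 CPM in posterior fragments (-8.47 ± 0.51), and Dnaseg, a deoxyribonuclease, had no count in anterior fragments, against 11.8 and 11.0 CPM in posterior fragments, so that it was at least 187-fold lower with a floor of 3 counts over the group. For each of the 4 the posterior levels were close to those of uncut larvae, at 423 and 333 CPM for Anpep and 109 and 250 CPM for Cpa4L.

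Not every digestive gene was low in the anterior fragment. Prss7, a serine protease, had 37.8 and 113 CPM in anterior fragments, against 10 and 15.6 CPM in posterior fragments (2.41 ± 0.36, adjusted p = 0.00113). Pla2g1b, a relative of Pla2g1b_2, had 140 and 192 CPM in anterior fragments, against 58.9 and 89.1 CPM in posterior fragments (1.18 ± 0.24, adjusted p = 0.0068). Over the whole list the summed level was 801 and 1453 CPM in anterior fragments, against 2475 and 3172 CPM in posterior fragments.

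Transcription factors of the endoderm were lower in anterior fragments in 6 of 15 tested (40%) and higher in none. Their median was -0.85, and of all loci 5.68% were lower and 7.23% higher. Nkx6-1 (-3.94 ± 0.43, adjusted p = 0.000108), Cdxl, Hnf4 (-3.39 ± 0.40) and Hnf1aL (-2.49 ± 0.47) fell most. Hnf4, a nuclear receptor of gut epithelium, had 0.483 and 0.101 CPM in anterior fragments, against 3.28 and 2.95 CPM in posterior fragments. Coelom and mesoderm factors went both ways, with 9 of 34 lower and 5 higher and a median of -0.46 (without replicate 1, 8 and 3, and without replicate 2, 5 and 2). In the full fit the 9 and 5 were 26.5% and 14.7% of the list, against 5.68% lower and 7.23% higher over all loci. Osr had 1.14 and 1.26 CPM in anterior fragments, against 9.69 and 30.1 CPM in posterior fragments (-3.85 ± 0.38, adjusted p = 4.26e-05), and Tbx1 differed by -2.96 ± 0.56. The T-box gene Tbx4 had 9.07 and 4.78 CPM in anterior fragments, against 1.67 and 0.589 CPM in posterior fragments (2.67 ± 0.27, adjusted p = 5.11e-05). Tie1/2, a receptor tyrosine kinase, had 387 and 394 CPM in anterior fragments, against 54.0 and 184 CPM in posterior fragments (1.77 ± 0.51, adjusted p = 0.0423).

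The 10 named genes with the largest fitted falls over the whole table included Dnaseg, Cpa4L and Pla2g1b_2. Where a gene had no anterior count, its fitted difference and so its rank depend on the prior count. Among the other 7, Slsp_16 had 1 count in anterior fragments, against 28.4 and 162 CPM in posterior fragments, a ratio of posterior over anterior fragments of 4099 (95% counting interval 735 to 161948). Serp-2, at 1.55 and 7.14 CPM in anterior fragments, against 1698 and 3688 CPM in posterior fragments, was the most abundant (-9.52 ± 0.53, adjusted p = 1.69e-06). Apn7 had 2 counts in anterior fragments, against 7.81 and 18.5 CPM in posterior fragments, a ratio of 299 (82.5 to 2473). Abcc9d, Slc22a3_9, Slc10a2_7 and Asp-4, the last of which shares exon bases with another locus, had no count in either anterior library and were at least 40.7-, 30.1-, 26.7- and 27.6-fold lower in anterior fragments.

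Of 181 tested solute carriers 25 (13.8%) were lower in anterior fragments and 10 (5.52%) higher, with a median of -0.16, and of 85 genes of cytochrome P450 and other detoxification 9 (10.6%) were lower and 6 (7.06%) higher, with a median of -0.01. Over all loci 5.68% were lower and 7.23% higher. Leaving out replicate 1 and replicate 2 in turn gave 5 and 2 higher solute carriers and 4 and 1 higher detoxification genes. Slc7a11_6, an amino acid exchanger, had 0.310 and 0.352 CPM in anterior fragments, against 28.7 and 25.1 CPM in posterior fragments (-6.35 ± 0.37), and Slc7a4_1 had 1 count in anterior fragments, against 1.94 and 2.31 CPM in posterior fragments, a ratio of 102 (18.0 to 4076). Abcc9a (-5.63 ± 0.48), Abcc9j (-5.22 ± 0.54) and Cyp2L58 (-4.51 ± 0.41) stood at 2 CPM or less in anterior fragments. In the other direction were Slc18a2, the vesicular monoamine transporter, with 27.1 and 16.9 CPM in anterior fragments, against 5.78 and 5.47 CPM in posterior fragments (1.96 ± 0.36, adjusted p = 0.00401), Slc10a2_8 (1.50 ± 0.29) and Cyp2L35 (2.27 ± 0.43), which shares exon bases with another locus. Fmo2_2 also passed (2.41 ± 0.52, adjusted p = 0.01), with 13.8 and 473 CPM in anterior fragments, against 5.66 and 37.8 CPM in posterior fragments, which overlapped.

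Innate immune receptors held members at both extremes, with 22.2% lower and 11.1% higher in anterior fragments, against 5.68% and 7.23% of all loci. Of 45 tested, 10 were lower in anterior fragments and 5 higher, with a median of 0.05, and the 5 became 3 and 2 with replicates 1 and 2 left out in turn. Pgrp3, a peptidoglycan recognition gene that shares exon bases with another locus, had 6 counts in anterior fragments, 0.0345 and 0.251 CPM, against 10.8 and 24.1 CPM in posterior fragments (-7.05 ± 0.36, adjusted p = 1.5e-06). The scavenger receptor genes Srcr152 (-6.72 ± 0.60) and Srcr127 (-5.59 ± 0.40) and the Toll-like receptor gene TlrP81 (-6.61 ± 0.49) were likewise below 1 CPM in both anterior libraries. Masp, a serine protease of the lectin pathway of complement in vertebrates, had 46.0 and 41.9 CPM in anterior fragments, against 13 and 6.78 CPM in posterior fragments (2.24 ± 0.30, adjusted p = 0.000586). Clect/Egf/Tm_2 differed by 1.93 ± 0.32 with overlapping groups.

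Neuronal and synaptic genes were higher in anterior fragments in 14 of 66 tested (21.2%) and lower in 6 (9.09%), with a median of 0.37. Over all loci 7.23% were higher and 5.68% lower. The 14 became 5 without replicate 1 and 8 without replicate 2. Gabbr2L, a subunit of the metabotropic GABA receptor, had 5.07 and 1.76 CPM in anterior fragments, against 1 count in the 2 posterior libraries, a ratio of anterior over posterior fragments of 213 (95% counting interval 37.8 to 8474), and had the largest fitted rise of the named genes. Dbh_1, by its name dopamine beta-hydroxylase, had 11.2 and 7.14 CPM in anterior fragments, against 0.417 and 0.463 CPM in posterior fragments (4.45 ± 0.68, adjusted p = 0.00129), and shares exon bases with another locus. Th, tyrosine hydroxylase, is named here after its values were seen, since it stands upstream of dopamine beta-hydroxylase in catecholamine synthesis. It had 24.9 and 15.2 CPM in anterior fragments, against 2.68 and 4.63 CPM in posterior fragments (2.49 ± 0.35, adjusted p = 0.000769). Among the 6 that were lower, the synaptotagmin gene Syt7L_1 had 0.103 and 0.151 CPM in anterior fragments, against 4.95 and 4.38 CPM in posterior fragments (-5.26 ± 0.57), and the transporter gene Slc6a13 differed by -3.18 ± 0.56.

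The other named genes among the 10 largest rises were of mixed kinds. Znf280c, a zinc finger gene, had 15.9 and 9 CPM in anterior fragments, against 0.239 and 0.168 CPM in posterior fragments (5.88 ± 0.45, adjusted p = 7.07e-06). Calcr, a calcitonin receptor, had 27.2 and 35.4 CPM in anterior fragments, against 1.85 and 1.30 CPM in posterior fragments (4.28 ± 0.33, adjusted p = 7.77e-06), and Gpr112L (4.88 ± 0.39), Guan/Cyc (4.77 ± 0.28) and KpLr1 (3.87 ± 0.26) also passed. In these 5 genes the groups did not overlap. For eGas and Mt6_mmpL the replicates spread widely. eGas had 159 and 448 CPM in anterior fragments, against 0.954 and 15.8 CPM in posterior fragments (6.48 ± 1.51, adjusted p = 0.015), and uncut larvae had 6.21 and 362 CPM. Mt6_mmpL, a matrix metalloproteinase, had 2002 and 3932 CPM in anterior fragments, against 194 and 637 CPM in posterior fragments (3.09 ± 0.85, adjusted p = 0.0336), and uncut larvae had 372 and 4474 CPM. The synaptotagmin gene Syt6-2 (3.14 ± 0.66), had overlapping groups.

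Genes of motile cilia were higher in anterior fragments as a group, by a small amount each. Of 61 tested axonemal dynein, intraflagellar transport and radial spoke genes, 32 were higher and 1 was lower, 52.5% and 1.64% against 7.23% and 5.68% of all loci, and the median was 0.81. Tektin3, which lines the doublet microtubules of the axoneme, had 268 and 519 CPM in anterior fragments, against 99.3 and 229 CPM in posterior fragments (1.30 ± 0.27, adjusted p = 0.00846). FoxJ1 (1.45 ± 0.21) was the largest of the 32, and Tektin1-2 differed by 1.33 ± 0.24 with overlapping groups, as in 10 of the 33 genes that passed. Such overlap was not counted over all loci. The 1 gene that was lower, Ccdc40 (-2.28 ± 0.48), shares exon bases with another locus. The summed level of the list was 5834 and 10709 CPM in anterior fragments, against 3840 and 5459 CPM in posterior fragments, so that replicate 2 was above replicate 1 in both. With replicate 1 left out 13 of the genes passed as higher and with replicate 2 left out 1 did, while the median was 1.00 and 0.70. The ciliary band markers given further on share axonemal dynein genes and FoxJ1 with this list and moved with it.

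Muscle genes did not show such a difference, with a median of -0.16. While 7.23% of all loci were higher and 5.68% lower, of 16 tested muscle genes 1 (6.25%) was higher and none lower. That gene, Mylk3, a myosin light chain kinase, had 475 and 1074 CPM in anterior fragments, against 225 and 395 CPM in posterior fragments (1.27 ± 0.26, adjusted p = 0.00753).

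**Figure D3:**
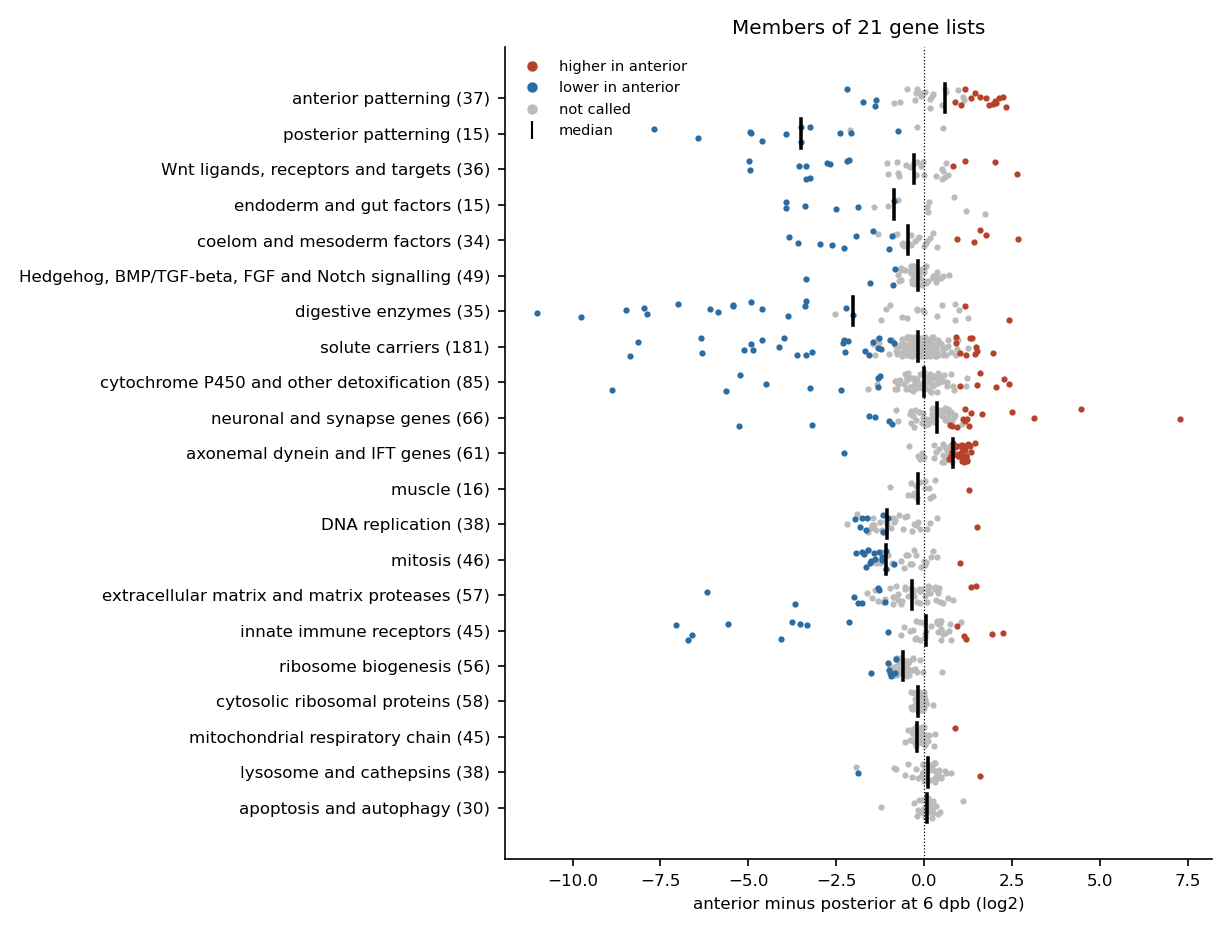
The anterior minus posterior difference (log2) at 6 dpb of every tested member of 21 gene lists, 1 row a list with its number of tested members, where red points were higher and blue points lower in anterior fragments, gray points did not pass and the black bar is the median. The medians of posterior patterning and digestive genes are the lowest, at -3.50 and -2.03, and the cilia list is the one with most of its points in red, at a median of 0.81.

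More genes of the cell cycle passed as lower in anterior fragments than as higher at 6 dpb. Of 38 tested DNA replication genes 8 (21.1%) were lower and 1 (2.63%) higher, with a median of -1.06. Of 46 mitosis genes 16 (34.8%) were lower and 1 (2.17%) higher, with a median of -1.08. The shares of all loci were 5.68% lower and 7.23% higher. In a fit to the 4 fragment libraries alone 4 replication genes and 1 mitosis gene were lower, and in a fit to the 6 libraries of 6 dpb 2 and 1 were. Rrm2_1, a subunit of the ribonucleotide reductase that makes deoxynucleotides, had 35.2 and 3.32 CPM in anterior fragments, against 66.0 and 27.2 CPM in posterior fragments (-1.95 ± 0.43, adjusted p = 0.011). Smc4, a condensin subunit, had 36.1 and 4.88 CPM in anterior fragments, against 64.6 and 31.3 CPM in posterior fragments (-1.76 ± 0.41, adjusted p = 0.0152). In both genes the groups overlapped, because replicate 1 was above replicate 2 in each fragment, and within each replicate the anterior library was the lower one. Groups overlapped in 6 of the 9 replication genes and 15 of the 17 mitosis genes that passed, the higher genes Orc1 and Survivin among them. The share of overlap among all loci that passed was not counted.

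Other members gave like values. Pola, the catalytic DNA polymerase alpha, differed by -1.83 ± 0.55, Rrm1 by -1.76 ± 0.44 and Dut by -1.65 ± 0.44. The kinesin gene Kif20AL differed by -1.94 ± 0.51, the spindle factor Tpx2L1 by -1.70 ± 0.43 and the condensin gene Ncapd2 by -1.65 ± 0.40. Cdk1, the mitotic kinase, named after its values were seen, had 19.1 and 5.98 CPM in anterior fragments, against 32.2 and 17.9 CPM in posterior fragments (-1.20 ± 0.27, adjusted p = 0.0128). The 2 genes that were higher, Orc1 (1.50 ± 0.24), of the origin recognition complex, and Survivin (1.02 ± 0.25), had replicate 2 above replicate 1 in both fragments, the reverse of the rest.

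The summed levels show the size of the replicate effect. Replication genes summed to 478 and 278 CPM in anterior fragments, against 647 and 419 CPM in posterior fragments, with 390.3 and 245 CPM in uncut larvae. Mitosis genes summed to 597 and 420 CPM in anterior fragments, against 778 and 577 CPM in posterior fragments, with 545 and 412 CPM in uncut larvae. The anterior sums were closer to the uncut ones than the posterior sums were. The median difference was -0.57 in the replicate 1 pair and -1.49 in the replicate 2 pair for replication genes, and -0.53 and -1.55 for mitosis genes. With replicate 1 left out 20 mitosis genes and 8 replication genes passed as lower, and with replicate 2 left out none of either did, at medians of -0.54 and -0.59. Posterior replicate 2, the library that stood apart on the first principal component, is in the pair with the larger difference, and its part in the result was not tested.

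**Figure D4:**
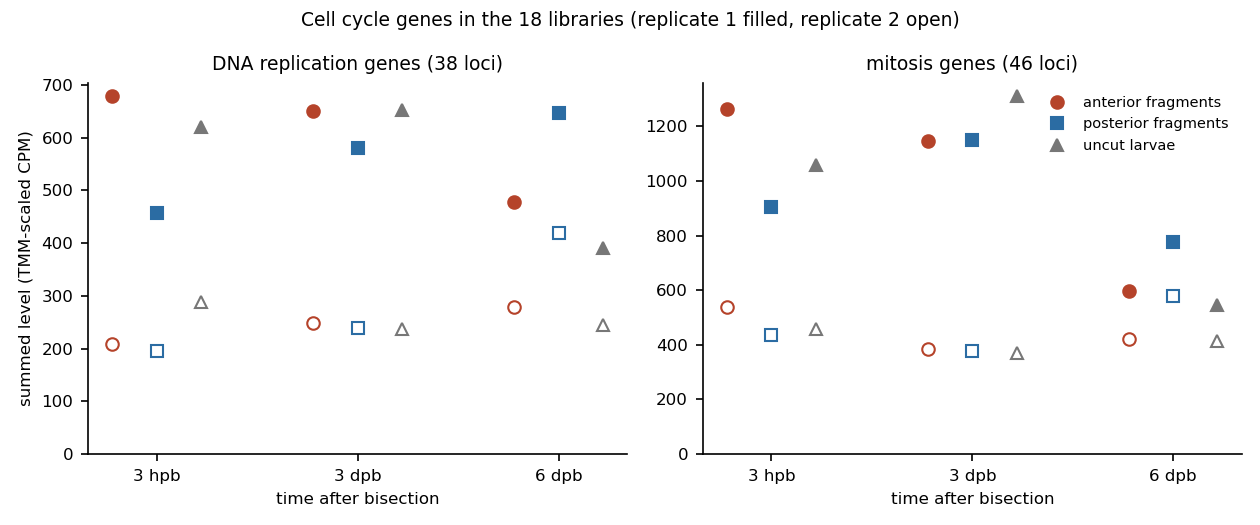
Summed CPM of 38 DNA replication genes (left) and 46 mitosis genes (right) in all 18 libraries at 3 hpb, 3 dpb and 6 dpb, with anterior fragments in red, posterior fragments in blue and uncut larvae in gray, replicate 1 filled and replicate 2 open. Filled points lie above open ones in every group, and only at 6 dpb do both posterior libraries lie above the anterior and uncut libraries of their own replicate number.

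Among 56 ribosome biogenesis genes 7 (12.5%, against 5.68% of all loci) were lower in anterior fragments and none higher, with a median of -0.61. The lower count was 0 without replicate 1, 4 without replicate 2, and 1 in the fits to the 4 fragment libraries or to the 6 libraries of 6 dpb. Of the 56 members 55 had a difference below 0, in the fit as in the replicate 1 pair, and 53 in the replicate 2 pair. Utp14A, of the small subunit processome, had 2.55 and 1.91 CPM in anterior fragments, against 7.72 and 5.18 CPM in posterior fragments (-1.52 ± 0.25, adjusted p = 0.00225), and Nolc1, a nucleolar phosphoprotein, had 16.0 and 20.2 CPM in anterior fragments, against 41.5 and 30.8 CPM in posterior fragments (-1.01 ± 0.24, adjusted p = 0.0175). Polr1e of RNA polymerase I (-1.01 ± 0.30) and the helicase gene Ddx27 (-0.97 ± 0.28) passed as well. Of 58 genes of the ribosomal proteins themselves none passed with edgeR or with DESeq2, and none had an unadjusted p under 0.05 with edgeR, with a median of -0.16.

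Over all loci 5.68% were lower and 7.23% higher in anterior fragments. Extracellular matrix and matrix protease genes were lower in 8 of 57 tested (14.0%) and higher in 2 (3.51%), with a median of -0.34. Without replicate 2 these counts were 4 and 0. Lox, a lysyl oxidase that cross-links collagen, had 0.414 and 0.101 CPM in anterior fragments, against 19.0 and 20.0 CPM in posterior fragments (-6.18 ± 0.48, adjusted p = 7.77e-06), and its relative Loxl4 differed by -3.67 ± 0.38. AdamtsL had 11.9 and 5.38 CPM in anterior fragments, against 37.7 and 26.4 CPM in posterior fragments (adjusted p = 0.00156). The fibrillar collagen gene FcolI/II/IIIf (-1.87 ± 0.38) was lower too. ThromE was higher (1.34 ± 0.21), and Thbs3 (1.49 ± 0.42) was higher with overlapping groups. The matrix metalloproteinase gene Mt6_mmpL, which was higher (3.09 ± 0.85), is not a member of this list, so the counts are without it. Of 49 genes of Hedgehog, BMP/TGF-beta, FGF and Notch signalling none was higher and 4 were lower, with a median of -0.18, and the lower count was 2 without replicate 1 and 0 without replicate 2. The 4 are 8.16% of the list, against 5.68% of all loci. They were Lfng (-3.37 ± 0.65), which modifies Notch receptors, Bmp3b (-1.54 ± 0.45), the receptor gene TgfbrtII (-0.87 ± 0.25) and Hes1 (-0.83 ± 0.24), and the groups of Bmp3b and Hes1 overlapped.

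In the remaining lists at most 2.63% passed in either direction, against 7.23% higher and 5.68% lower of all loci. None of 30 apoptosis and autophagy genes passed with edgeR (3 had an unadjusted p under 0.05, and DESeq2 called 1), 1 of 45 genes of the mitochondrial respiratory chain was higher (Ndufs4, 0.88 ± 0.22), and of 38 lysosomal genes 2 passed, among them Cts1, which was higher (1.59 ± 0.33). Their medians were 0.07, -0.19 and 0.12, beside -0.03 over all loci. In the respiratory chain list 38 members had a difference below 0 and 7 above. The signs of the medians for apoptosis, lysosomal, immune and detoxification genes turned under at least 1 other scaling, and nothing is read from them.

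Markers of the anterior and posterior ends followed the labels of the fragments. They share genes with the patterning and Wnt lists above, so they are no separate check. Each count of markers stands beside 7.23% higher and 5.68% lower over all loci. Of 9 apical markers 6 were higher in anterior fragments and none lower, and they summed to 1658 and 1584 CPM in anterior fragments, against 660 and 504 CPM in posterior fragments. Frizz5/8 alone held 965 and 807 CPM of the anterior sums. Of 9 markers of posterior ectoderm and hindgut none was higher and 7 were lower, and they summed to 244 and 145 CPM in anterior fragments, against 669 and 525 CPM in posterior fragments. Of 11 midgut enzymes 4 were lower and none higher, with a median of -0.49. Their sums were 338 and 758 CPM in anterior fragments, against 754 and 1295 CPM in posterior fragments, and these overlapped. Of 19 ciliary band markers 6 were higher and none lower, with sums of 2328 and 3820 CPM in anterior fragments, against 1468 and 2109 CPM in posterior fragments. Of 20 markers of blastocoelar and mesenchyme cells 6 were lower and 1 higher, with sums of 560 and 589 CPM in anterior fragments, against 928 and 1137 CPM in posterior fragments, and neither of 2 gut muscle genes passed. No list was at 0 in either fragment: 8 of the 9 posterior markers and 19 of the 20 mesenchyme markers had counts in both anterior libraries, as did all those of the other lists, and the part of these cell types in the differences above was not tested.

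The same contrast at the earlier times, between anterior and posterior fragments of 3 hpb and 3 dpb, gave 1196 loci higher (3.76%) and 2613 lower (8.22%) at 3 hpb, and 814 higher (2.56%) and 1549 lower (4.87%) at 3 dpb. Of the 1807 loci lower in anterior fragments at 6 dpb, 1330 were also lower at 3 hpb, which is 73.6% of those at 6 dpb and 50.9% of those at 3 hpb, and 428 (23.7%) were lower at neither earlier time. Of the 2299 higher at 6 dpb, 628 were also higher at 3 hpb, 27.3% of those at 6 dpb and 52.5% of those at 3 hpb, and 1493 (64.9%) were higher at neither. Few loci passed with opposite signs, 3 and 1 against 3 hpb for those lower and higher at 6 dpb.

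The difference between times was tested itself, as the contrast at 6 dpb minus that at 3 hpb. It passed for 14 loci (0.0440%), 7 above 0 and 7 below, with 2727 loci at an unadjusted p under 0.05 (8.58%). The difference between 6 dpb and 3 dpb passed for 2 loci (0.00629%), 1 on each side of 0, with 1414 at an unadjusted p under 0.05 (4.45%). Frizz5/8 was among the 14 loci that passed against 3 hpb, and its contrast was 4.72 (3 hpb), 3.84 (3 dpb) and 2.01 (6 dpb), a difference of -2.71 ± 0.28 (adjusted p = 0.013). Its anterior libraries had 556 and 725 CPM at 3 hpb and 965 and 807 CPM at 6 dpb, and its posterior libraries had 22.9 and 25.5 CPM at 3 hpb, 68.9 and 43.4 CPM at 3 dpb and 294 and 166 CPM at 6 dpb. The posterior level at 6 dpb was thus near that of uncut larvae for this gene. Z133 had 40.6 and 83.1 CPM in anterior fragments at 3 hpb and 70.9 and 56.0 CPM at 6 dpb, and 0.942 and 1.96 CPM in posterior fragments at 3 hpb and 42.7 and 16.8 CPM at 6 dpb (difference -4.20 ± 0.40, adjusted p = 0.0107).

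The anterior patterning list as a whole had smaller differences at 6 dpb, with medians of 1.24 (3 hpb), 1.04 (3 dpb) and 0.61 (6 dpb). The difference between 6 dpb and 3 hpb was below 0 in 34 of 37 members, although Frizz5/8 alone passed the test of it. Zic had 3.06 and 2.47 CPM in posterior fragments at 3 hpb and 21 and 9.18 CPM at 6 dpb, and Awh 1.04 and 1.62 CPM at 3 hpb and 13.6 and 12.4 CPM at 6 dpb. The posterior patterning list gave medians of -3.69, -4.13 and -3.50 at the 3 times, and 7 members lay below and 8 above 0 in the difference. Hox11/13b had 0.383 and 0.603 CPM in anterior fragments at 3 hpb and 5.69 and 0.402 CPM at 6 dpb, so that 1 of 2 anterior libraries was higher at the later time.

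Of the digestive enzymes, Cpa4L alone passed the test of the difference between 6 dpb and 3 hpb. It had 7.92 and 16.8 CPM in anterior fragments at 3 hpb, 2.51 and 15.7 CPM at 3 dpb and 0.103 and 0.251 CPM at 6 dpb, while its posterior libraries had 281 and 794 CPM at 3 hpb and 86.6 and 238 CPM at 6 dpb (difference -4.39 ± 0.56, adjusted p = 0.0396). Serp-2, in none of the lists, gave -4.04 ± 0.55 (adjusted p = 0.0396), with 65.3 and 86.0 CPM in anterior fragments at 3 hpb and 1.55 and 7.14 CPM at 6 dpb. Bhmt (2.39 ± 0.34) and Abca3L (adjusted p = 0.0396 for the difference) went the other way, since their posterior levels were lower at 6 dpb than at 3 hpb, with 139 CPM in both posterior libraries at 3 hpb and 41.6 and 21.8 CPM at 6 dpb for Bhmt. Fam167a, not different between fragments at 6 dpb (-0.41 ± 0.24, adjusted p = 0.327), had 36.2 and 6.86 CPM in anterior fragments, against 6.12 and 2.13 CPM in posterior fragments at 3 hpb, a difference of -2.61 ± 0.35.

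The medians of the cell cycle lists were on other sides of 0 at different times. Mitosis genes had medians of 0.54, -0.02 and -1.08 at the 3 times, beside 0.11, 0.02 and -0.03 over all loci, and none passed in edgeR's test at 3 hpb or 3 dpb, with 13 and 0 members at an unadjusted p under 0.05. The difference between 6 dpb and 3 hpb was below 0 in 42 of 46 members, with an unadjusted p under 0.05 in 30, but in none did it pass after adjustment. Replication genes had medians of 0.18, -0.20 and -1.06, and none passed at 3 hpb or 3 dpb, with 1 and 3 members at an unadjusted p under 0.05. Their difference between 6 dpb and 3 hpb was below 0 in 35 of 38, with an unadjusted p under 0.05 in 12 and none after adjustment. The cilia list kept its sign, with medians of 0.66, 0.77 and 0.81 and 7, 13 and 32 members higher in anterior fragments at the 3 times.

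**Figure D5:**
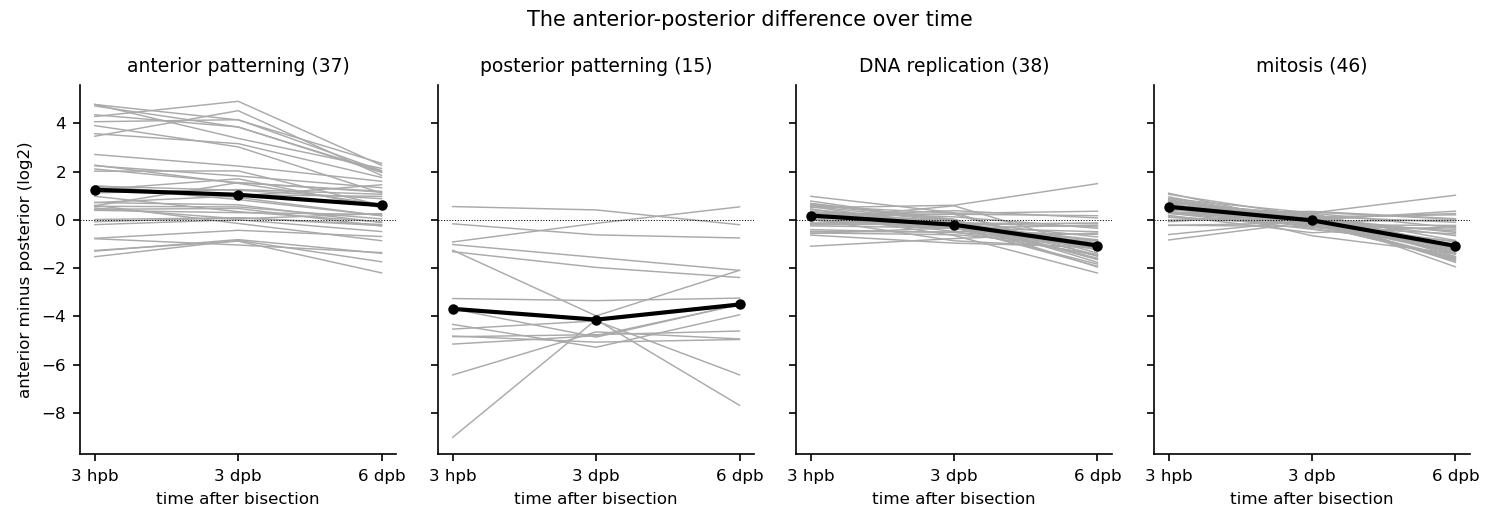
The anterior minus posterior difference (log2) at 3 hpb, 3 dpb and 6 dpb for every tested member of 4 gene lists, 1 gray line a gene, with the list's median in black and the number of members in the title. The median of anterior patterning genes comes closer to 0 over time, that of posterior patterning genes stays between -4.13 and -3.50, and those of replication and mitosis genes move below 0 at 6 dpb.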

How the data were processed

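RNA was measured in 18 libraries, 2 replicate pools each of anterior fragments, posterior fragments and uncut larvae at 3 times. The authors deposited raw read counts per locus, 1 file a library. They trimmed reads with Trimmomatic, used TopHat2 2.0.12 for alignment (assembly P. miniata v1.0), assembled transcripts with Cufflinks 2.2.1 and counted with HTSeq 0.6.1p1, as the paper's methods and the submitters' processing notes say. A second deposited table holds log2 fold changes of the authors' own comparisons with uncut controls, of which only the locus identifiers and gene names were used. Reads that HTSeq assigned to no feature (2.4 to 3.7%) or as ambiguous (6.1 to 8.7%) were left out of library sizes.

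Counts were fitted with edgeR 4.0.16 in R 4.3.3 (TMM scaling, quasi-likelihood F test) over all 18 libraries, with a coefficient for each of 9 groups and replicate blocks set within each time, which left 6 residual degrees of freedom. Loci above 3 CPM in at least 2 libraries were tested, 31798 of 80165. The study's methods control for sample batch. Taking the replicate number as that batch, within each time, was a choice made here. Same-numbered libraries deviated together, with correlations of 0.742 to 0.916 over the pairs and 0.823 between anterior and posterior fragments at 6 dpb. A fragment with no count in either library was given a bound with a floor of 3 counts over the group, and one with 1 to 3 counts a ratio with a 95% counting interval. Intervals and bounds cover counting error only.

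The named genes were the 10 largest rises and falls among named loci that passed, the members of the axial patterning and Wnt lists, the members with the largest changes in either direction of each other list, and the named loci with the largest differences between times that passed. The members, lists and design were chosen with earlier results of these data known. Some genes that the rule selects are not reported here. Pnca, with 0.724 and 0.453 CPM in anterior fragments, against 18.2 and 15.4 CPM in posterior fragments (-4.81 ± 0.34), was left out of the replication list after its values were seen, so that list's lower count and median are without it. The name table holds only loci past a filter, so every list member was tested. A name carried by several loci is represented by 1 locus, that of the study's probe or otherwise that with the highest mean count. Loci with 2 or more names stayed out of the lists. The 14277 tested loci with 1 name carry 7172 distinct names, while the shares over all loci count every tested locus. Named genes that share exon bases with another locus, so that their reads could be dropped or split, include Apc, Asp-4, Ccdc40, Cyp2L35, Dbh_1, Dkk1, Dlx, Dsh, Dut, Emx, Hes1, Hox7, Ndufs4, Nlk, Notum_1, Otx, Pgrp3, Pygopos, Wnt10 and glysynk3b. FoxQ2, Six3 and Rx-1 were named by the study's probes. The name table and the probes give different names to the loci called Wnt7, Limc1 and Wnt5 here. Alternatives were a common or no block, fewer libraries, other scalings, DESeq2 1.42.0, other filters and leaving out each replicate. Summaries used Python 3.11.15 with pandas 2.3.3, and figures matplotlib 3.10.9.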

Additional observations from a re-analysis of the deposited data

Results flagged for a closer look

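The anterior-posterior difference at 6 dpb was tested against the same difference at 3 hpb and at 3 dpb within the fit, and 14 and 2 loci passed (edgeR, Benjamini-Hochberg adjusted p under 0.05). Each value is the log2 difference at 6 dpb minus that at the earlier time. Below 0 against 3 hpb were Cpa4L (-4.39), Z133 (-4.20), Serp-2 (-4.04), the unnamed locus XLOC_061902 (-3.79), Frizz5/8 (-2.71), Fam167a (-2.61) and RasO (-2.15). RasO had 254 and 144 CPM in anterior fragments, against 562 and 302 CPM in posterior fragments at 6 dpb, and 223 and 345 CPM in anterior fragments, against 125 and 147 CPM in posterior fragments at 3 hpb. Above 0 were the unnamed loci XLOC_007581 (7.13), XLOC_077556 (3.80), XLOC_048482 (2.95), XLOC_063755 (2.35) and XLOC_062137 (2.30) and the genes Bhmt (2.39) and Abca3L (2.1).

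Against 3 dpb, XLOC_061902 gave -4.09 and XLOC_077556 gave 3.97. XLOC_077556 was almost confined to replicate 2 at every time, with 0.103 and 67.7 CPM in anterior fragments, against 0 and 4.92 CPM in posterior fragments at 6 dpb. XLOC_048482 had 0.552 and 39.6 CPM in anterior fragments, against 0.0894 and 2.95 CPM in posterior fragments at 6 dpb. XLOC_007581 was below 2 CPM in all 4 fragment libraries of 6 dpb, and 1 posterior library of 3 hpb held 16.7 CPM of it, against 0.0852 CPM in the other.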

How the results depend on the processing

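Of the 123 named genes that passed, none changed direction under any alternative that was run. Every alternative refitted the same libraries, and the largest rises and falls were chosen for the same direction in both pairs. The lack of reversals is therefore no separate check. With 2299 loci higher and 1807 lower in anterior fragments as reported, a common replicate block across times gave 510 and 867, all of them among the reported loci, and no replicate block gave 73 and 555. A fit to the 6 libraries of 6 dpb gave 1429 and 1198. Under the looser rule (2225 and 2235 as reported), no replicate block gave 619 and 1185, and no filter on low counts gave 3936 and 4509 among 78950 loci. Leaving out a replicate gave 487 to 1215 higher and 896 to 1510 lower, with 417 and 865 of the reported loci still called without replicate 2, and 1036 and 1188 without replicate 1. In these fits the lone pair is assumed to vary like the other groups. The difference between 6 dpb and 3 hpb (14 loci as reported) passed for 0 loci with a common block, 0 with no block, 9 with library size alone, 284 with DESeq2 and 151 without a filter, and for 1 to 38 with a replicate left out. That between 6 dpb and 3 dpb (2 loci) passed for 0 with a common block, 0 with no block, 7 with library size alone, 98 with DESeq2 and 85 without a filter, and for 0 to 27 with a replicate left out. Of the 123 named genes 70 still passed with the common block, 49 with no block, 93 without replicate 1 and 70 without replicate 2. The 16 mitosis and 8 replication genes that were lower became 0 and 0 with a common block, with no block and without replicate 2, and the 32 cilia genes that were higher became 12, 0 and 1. With a common block and with no block, the 14 anterior patterning genes that were higher became 9 and 4, the 14 neuronal genes 7 and 3, the 10 Wnt genes that were lower 4 and 2, the 7 ribosome biogenesis genes 1 and 0, the 12 posterior patterning genes 9 and 7 and the 17 digestive enzymes 16 and 15. Library size alone moved the median of all loci by -0.13. The 2 replicates a group limit every count, and genes under about 1 CPM rest on few reads. The causes of these changes were not tested.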

Other observations

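Cytosolic ribosomal protein genes, of which none passed at any time in edgeR's test, had medians of -0.45 at 3 hpb, -0.50 at 3 dpb and -0.16 at 6 dpb, with 29, 51 and 0 of 58 members at an unadjusted p under 0.05. Their summed level was 28007 and 24678 CPM in anterior fragments, against 36222 and 39099 CPM in posterior fragments at 3 dpb, and 32028 and 29266 CPM in anterior fragments, against 36623 and 33085 CPM in posterior fragments at 6 dpb. The groups overlapped at neither of these times.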
